A study of Mus musculus with 6 samples.

Results

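The 10 genes described here encode the angiopoietin and vascular endothelial growth factor (VEGF) ligands and their receptor tyrosine kinases, and were measured by poly(A) RNA sequencing of mouse hearts at E12.5, a mid-gestation embryonic stage. They were picked by symbol out of 30619 rows of the count table, as the angiopoietin receptor Tek and its relative Tie1, the ligands Angpt1 and Angpt2, the VEGF receptors Kdr, Flt1 and Flt4, and the ligands Vegfa, Vegfb and Vegfc. All 10 had a row and all 10 passed the filter on low counts. The study compared 3 libraries of hearts with a conditional knockout (CKO) of Trim28 with 3 libraries of wild-type control hearts. TRIM28 is a co-repressor that zinc finger proteins bring to DNA, and the study concerned its part in trabeculation and compaction of the ventricular wall. The cells were mixed embryonic cardiac cells with no sort, so every value is a sum over muscle, endothelium, endocardium, epicardium, blood and mesenchyme. Titles name the knockout samples CKO, while their genotype field says knockdown. Neither the Cre driver nor the deleted exons, the strain or the number of hearts per library was stated in the labels.

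As background, endothelial cells carry both receptor families, and the ligands come mostly from neighbouring cells. Angiopoietin 1 activates TIE2 (the product of Tek) and steadies vessels, angiopoietin 2 blocks or weakly activates it depending on context, and TIE1 modulates TIE2 without a ligand of its own. VEGF-A acts through VEGFR2 (the product of Kdr) to drive endothelial growth, while VEGFR1 (Flt1) binds VEGF-A and VEGF-B tightly and acts largely as a decoy, and VEGF-C signals through VEGFR3 (Flt4) and is best known for lymphatic vessels. In the embryonic heart the endocardium lines the trabeculae, and signals between it and the myocardium, Angpt1 to Tek among them, are needed for normal trabeculae in mice. Vegfa is a known target of hypoxia-inducible factors (HIF), whose DNA element has the core ACGTG or GCGTG. ETS factors, which bind CCGGAA among other forms of their site, are known activators of endothelial genes.

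RefSeq promoter windows (build GRCm38.p6) matched 8 of the 10 genes, and those of Angpt1 and Angpt2 were not used here. The 250 bases before the first listed start are printed, on the coding strand from 5′ to 3′, for the receptor genes that fell in CKO hearts and for Vegfa, the ligand with the largest difference of opposite sign. Capitals mark a HIF core or CCGGAA on either strand, and other forms of the ETS site were not searched. The Tek window lies at chr4:94739039-94739288 (plus strand), the Kdr window at chr5:75978456-75978705 (minus strand) and the Vegfa window at chr17:46032378-46032627 (minus strand).
Tek: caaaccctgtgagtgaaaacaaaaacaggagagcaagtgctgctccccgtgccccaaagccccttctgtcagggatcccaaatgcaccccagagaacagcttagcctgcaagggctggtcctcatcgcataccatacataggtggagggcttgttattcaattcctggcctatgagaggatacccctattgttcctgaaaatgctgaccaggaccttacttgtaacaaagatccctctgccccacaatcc
Kdr: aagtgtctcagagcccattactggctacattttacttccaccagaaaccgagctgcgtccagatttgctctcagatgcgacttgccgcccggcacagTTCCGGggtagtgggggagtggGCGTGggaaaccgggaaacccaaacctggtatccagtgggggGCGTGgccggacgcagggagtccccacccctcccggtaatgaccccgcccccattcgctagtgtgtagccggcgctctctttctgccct
Vegfa: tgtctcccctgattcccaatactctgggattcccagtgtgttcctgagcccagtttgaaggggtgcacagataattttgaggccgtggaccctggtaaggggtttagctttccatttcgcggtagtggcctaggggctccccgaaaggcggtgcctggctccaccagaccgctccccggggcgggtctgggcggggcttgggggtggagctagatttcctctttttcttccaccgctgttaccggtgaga
The Kdr window held GCGTG at 2 places and the reverse complement of CCGGAA at 1. The Tek window and the printed Vegfa window held none of these 3 motifs, nor did those of Tie1, Flt4 and Vegfc. Only these 250 bases were searched, so the lack of a match says nothing about sites elsewhere at these genes. A second Vegfa window, before an internal start (chr17:46025164-46025413, minus strand), held ACGTG at 1 place and GCGTG at 1. That window lies inside the Vegfa gene, where its letters can also be exon sequence. The Flt1 window held GCGTG at 1 place and that of Vegfb at 2. Of 32851 promoter windows of the same length, 16.6% held ACGTG, 28.2% held GCGTG and 12% held CCGGAA on either strand, so these letters are common, and a match is not a binding site.

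The CKO libraries held 34400841 to 39763233 counts and the control libraries 36854002 to 39702929. The labelled tissue was borne out by 10 cardiomyocyte markers, which summed to 33529 to 34810 CPM (counts scaled to library size, with edgeR's TMM factors) in CKO and 31552 to 34070 CPM in control hearts, with none at 0 in any library. Trim28 itself had 172, 314 and 165 CPM in CKO 1, 2 and 3, and 305, 391 and 443 CPM in control 1, 2 and 3. The library labelled CKO 2 therefore lay inside the control range, and directions for the CKO group rest on its label. Trim28 was not called by edgeR (-0.81 on the log2 scale, SE 0.34, adjusted p = 0.339), but was by edgeR without robust estimation (adjusted p = 0.0194) and by limma-voom (-0.86, adjusted p = 0.0165). A row of ribosomal RNA took 0.563% to 0.790% of the counts in CKO and 0.126% to 0.522% in control libraries. Every CKO library was thus above every control. As a covariate in the fits below, this share cannot be fully told apart from the group, so a call lost with it decides nothing about either. The libraries also differed in sex-linked RNA, with Y-linked genes summing to 102, 208 and 209 CPM in CKO 1, 2 and 3 and to 80.4, 0.0260 and 122 CPM in control 1, 2 and 3. Xist had 15232, 7 and 4 counts in CKO 1, 2 and 3, and 24633, 36330 and 17569 counts in control 1, 2 and 3. CKO 1, control 1 and control 3 thus held both Xist and Y-linked RNA. The Y-linked level entered the fits below as a covariate on a log2 scale, where control 2 lay far below every other library. A fit with it therefore came close to one that left out control 2, and a call lost with it cannot be tied to sex-linked RNA.

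In CKO hearts the receptor genes Tek and Kdr fell, by 22.0% and 16.6%, and no gene of the family passed the test in the higher direction. Calls required an adjusted p under 0.05 in edgeR's quasi-likelihood test, with Benjamini-Hochberg adjustment over all 17557 tested genes. By that rule 2 of the 10 genes were lower, where 1.07% of all tested genes were, and 0 were higher, where 3.03% of all were. Before adjustment, 5 genes had p under 0.05 (Tek, Tie1, Kdr, Vegfa and Vegfc), as did 17.8% of all tested genes. The 3 CKO and 3 control values did not overlap for Tek, Tie1, Kdr and Vegfc, which were lower in CKO, and for Vegfa, which was higher, where 10.6% and 11.5% of all tested genes were apart in those directions. Log2 fold changes, CKO over control, were negative for 7 genes and positive for Angpt2, Vegfa and Vegfb. Their median was -0.18, beside 0.0035 over all tested genes. Some calls below come from other tools and fits, whose shares of all genes called higher and lower were 4.20% and 1.93% for DESeq2, 2.82% and 1.04% for limma-voom, 3.22% and 1.11% for edgeR without robust estimation, 2.23% and 0.761% without CKO 1, and 5.57% and 2.97% without CKO 2.

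**Figure D1:**
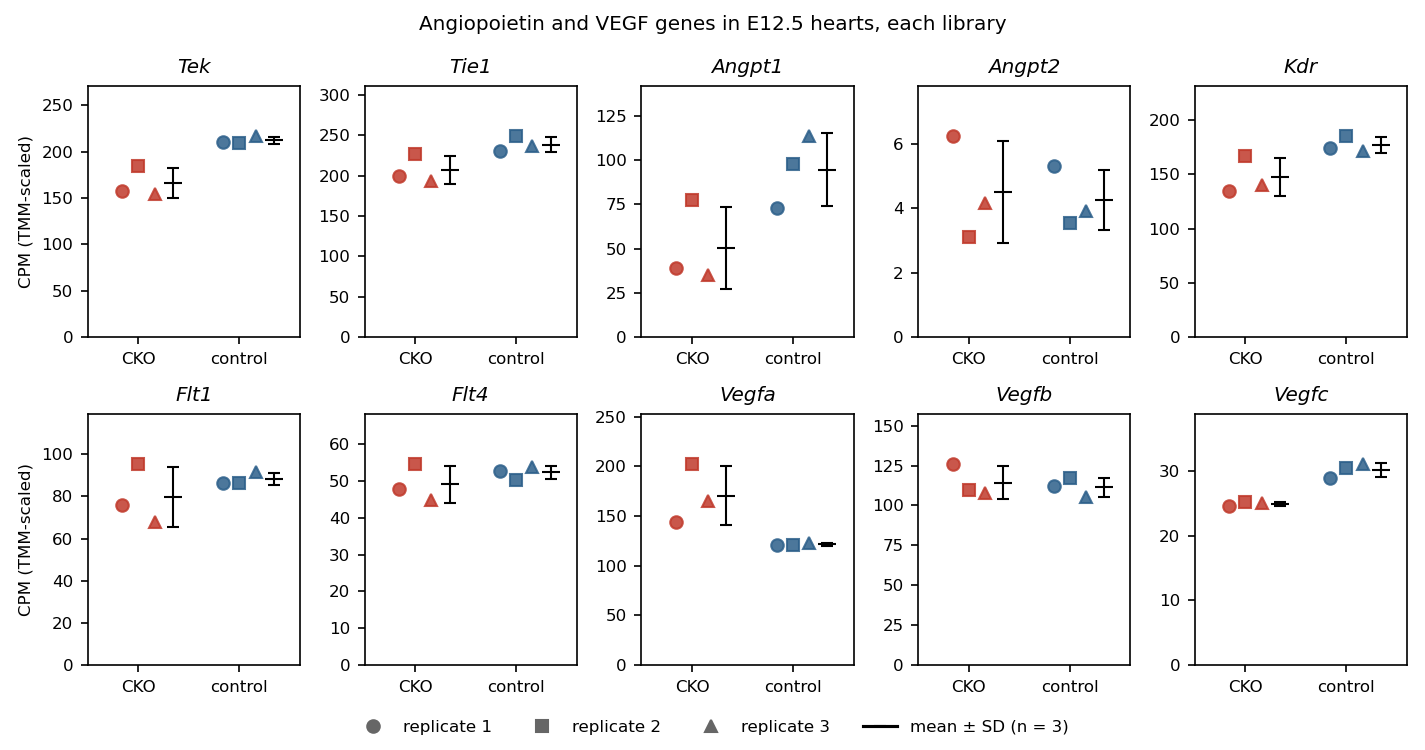
Expression of the 10 genes in each library, in CPM on an axis that starts at 0 in each panel, with CKO left of control; points are libraries, and bars give the mean and SD (n = 3 each). The groups are apart for Tek, Tie1, Kdr and Vegfc, lower in CKO, and for Vegfa, higher in CKO, while the Angpt1 values overlap because CKO 2 (77.1 CPM) lies above control 1 (72.6 CPM).

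Tek (ENSMUSG00000006386.15, mm10 chr4:94739289-94874976, plus strand), the TIE2 receptor gene, had 158, 184 and 155 CPM in CKO 1, 2 and 3, against 211, 209.7 and 217 CPM in control 1, 2 and 3. Every CKO library was below every control, and the controls varied little. The means were 166 ± 16.1 CPM in CKO and 212 ± 3.69 CPM in control hearts (SD, n = 3 each), or -0.36 on the log2 scale (SE 0.06, edgeR adjusted p = 0.00195). Tek was called without each library in turn (log2 fold change -0.44 to -0.31, adjusted p up to 0.0283). It was not called with the ribosomal RNA share, itself apart between the groups, as a covariate (-0.34, SE 0.10, adjusted p = 0.254).

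Tie1 (ENSMUSG00000033191.14, mm10 chr4:118471191-118490061, minus strand), which encodes the receptor that partners TIE2, had 200.2, 227 and 194 CPM in CKO 1, 2 and 3. Its control values were 230.2, 249 and 237 CPM. The groups were apart by a narrow gap, between CKO 2 and control 1. The log2 fold change was -0.20 (SE 0.06), short of the threshold (adjusted p = 0.0646), and without CKO 2 it was -0.28 and called (adjusted p = 0.00132). Tie1 was also called by DESeq2 (adjusted p = 0.0293), and by edgeR with no scaling factors (0.0421) or no filter (0.00683). Within a library, Tek counts per Tie1 count were 0.789, 0.810 and 0.799 in CKO, against 0.916, 0.843 and 0.916 in control hearts. This ratio, which does not depend on scaling, was lower in all 3 CKO libraries, on average by 0.16 on the log2 scale, and gave the smallest two-sided exact permutation p that 3 against 3 libraries allow (p = 0.1, adjusted p = 0.25 over 15 ratios).

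Kdr (ENSMUSG00000062960.10, mm10 chr5:75932827-75978458, minus strand), the VEGFR2 gene, had 135, 167 and 140.5 CPM in CKO 1, 2 and 3, against 174, 185 and 171 CPM in control 1, 2 and 3. CKO 2 was again the nearest to the controls. The means were 148 ± 17.3 CPM in CKO and 177 ± 7.29 CPM in control hearts (SD, n = 3 each), and the log2 fold change was -0.26 (SE 0.07, edgeR adjusted p = 0.046). The call was near the threshold: of the 6 fits that left out 1 library, it was kept only without CKO 2 (-0.36, adjusted p = 0.000104), and in the others the adjusted p reached 0.217. Kdr was also not called with upper-quartile scaling (adjusted p = 0.0516) or with the ribosomal RNA share (0.548) or the Y-linked level (0.262) as a covariate.

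The other VEGF receptor genes did not pass the test. Flt1 (ENSMUSG00000029648.13, mm10 chr5:147561604-147726011, minus strand), the VEGFR1 gene, had 75.8, 95.4 and 67.8 CPM in CKO 1, 2 and 3 and 86.6, 86.5 and 91.7 CPM in control 1, 2 and 3. CKO 2 had more than any control and the other CKO libraries had less, and the log2 fold change was -0.15 (SE 0.11, adjusted p = 0.552). Without CKO 2, Flt1 was called (-0.30, adjusted p = 0.0037), and without CKO 3 its log2 fold change was -0.0444 (adjusted p = 0.897). Flt4 (ENSMUSG00000020357.3, mm10 chr11:49609263-49652739, plus strand), the VEGFR3 gene, showed the same order of CKO libraries, with 47.8, 54.7 and 44.8 CPM in CKO and 52.8, 50.4 and 53.9 CPM in control hearts (-0.09, SE 0.07, adjusted p = 0.574). The Flt4 value was -0.18 without CKO 2 and -0.0324 without CKO 3, and was called in neither fit. The Kdr to Flt4 ratio was lower in all 3 CKO libraries, by 0.17 on the log2 scale (exact permutation p = 0.1, adjusted p = 0.25), whereas the Kdr to Flt1 ratios overlapped (-0.11, exact permutation p = 0.3, adjusted p = 0.375).

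**Figure D2:**
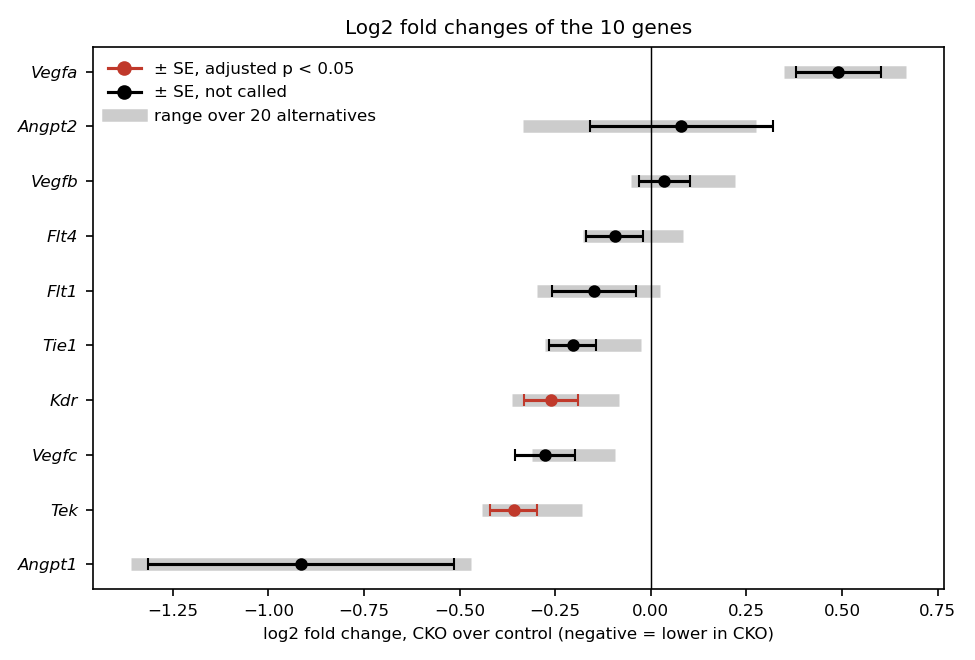
Log2 fold change (CKO over control) of the 10 genes from the edgeR fit, ordered by size; bars are the SE, red points passed an adjusted p under 0.05, and grey bands span the values under 20 alternative settings. Tek (-0.36) and Kdr (-0.26) passed, while Angpt1 (-0.91) and Vegfa (0.49), with larger fold changes, did not.

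Endothelial markers were mostly lower in CKO hearts as well. Of 20 endothelial markers, 4 fell (Cdh5, Plvap, Ramp2 and Rasip1, with log2 fold changes of -0.30, -0.35, -0.28 and -0.30 and adjusted p of 0.00839 to 0.0366) and none rose, 19 were negative, and the median was -0.16. Their summed level was 1332 to 1504 CPM in CKO and 1559 to 1621 CPM in control hearts, with no marker at 0 in any library. These 4 calls became 8 without CKO 2, 3 without control 1, 1 without control 3 and 0 without control 2, without CKO 3 or with either covariate. Shares of all tested genes called lower also moved, from 1.07% to 2.97% without CKO 2 and 0.371% without control 1. They were 0.246% without control 3, 0.264% without control 2 and 0.216% without CKO 3. With the ribosomal RNA and Y-linked covariates they were 0.0171% and 0.199%. In bulk RNA, fewer cells of a type and less RNA per cell cannot be told apart. Per 100 endothelial marker counts, Tek had 11.5, 12.2 and 11.6 counts in CKO and 13.5, 12.9 and 13.6 counts in control libraries, so that every CKO library stayed below every control (log2 ratio -0.18, exact permutation p = 0.1, adjusted p = 0.25). By the same measure Kdr had 10.5 ± 0.657 counts in CKO and 11.1 ± 0.328 in control libraries, and Tie1 had 14.7 ± 0.333 in CKO and 14.99 ± 0.315 in control (SD, n = 3 each). Flt1 had 5.65 ± 0.639 in CKO and 5.55 ± 0.215 in control, and Flt4 had 3.49 ± 0.135 in CKO and 3.29 ± 0.159 in control. The values of these 4 receptors overlapped between groups (log2 ratio -0.09 to 0.08, exact permutation p from 0.2 to 0.9). With libraries scaled to the endothelial sum, which raised the median of all tested genes by 0.18, the edgeR log2 fold change was -0.18 for Tek (adjusted p = 0.109), -0.08 for Kdr (0.488) and -0.03 for Tie1 (0.849), and positive for Flt1 (0.03, adjusted p = 0.863) and Flt4 (0.08, adjusted p = 0.529).

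**Figure D3:**
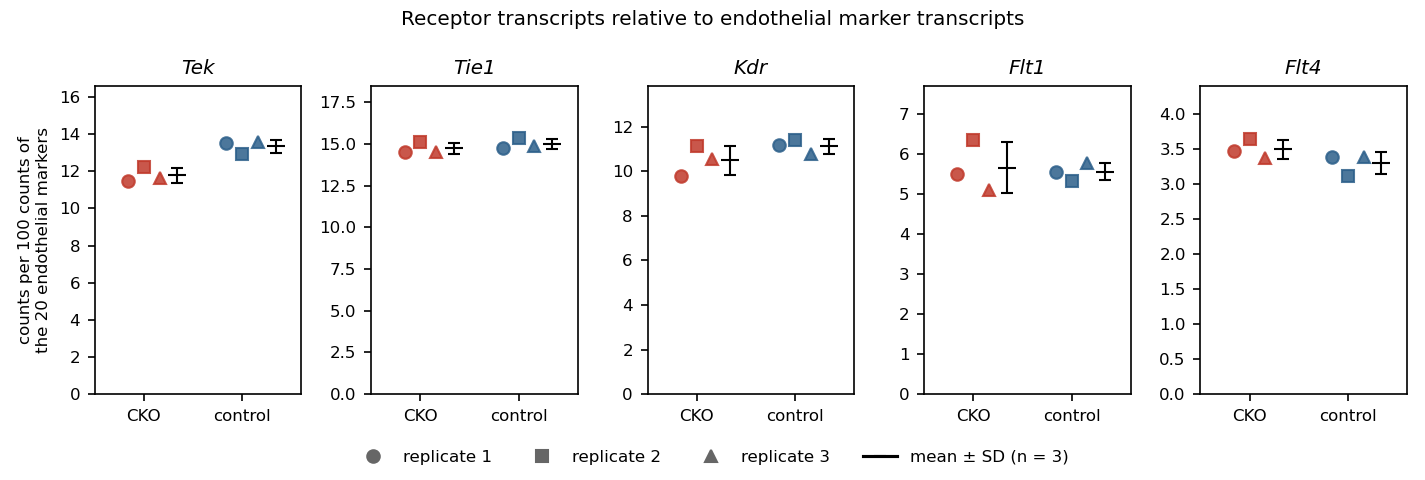
Counts of each receptor gene per 100 counts of the 20 endothelial markers in each library, CKO left of control, with the mean and SD (n = 3 each). Tek is the receptor whose groups are apart, at 11.8 ± 0.409 in CKO and 13.4 ± 0.364 in control libraries.

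More specific endothelial markers gave the following values. The 5 endocardial markers, of the cells that line the trabeculae, summed to 582 to 659 CPM in CKO and 648 to 689 CPM in control hearts, and none was called (median log2 fold change -0.14). Among 6 coronary and capillary markers Aplnr, the apelin receptor gene, fell by 0.55 on the log2 scale (SE 0.11, edgeR adjusted p = 0.00826), and the sum was 107 to 124.6 CPM in CKO and 130.3 to 139.6 CPM in control hearts. The 5 lymphatic markers in the table, of the endothelium in which Flt4 is best known, had a median of 0.07 and no calls. Among 7 mural markers, of the pericytes and smooth muscle cells that are known sources of Angpt1, Cspg4 rose by 0.32 (adjusted p = 0.00379) and Anpep fell by 0.40 (adjusted p = 0.0119). Their part in the levels of the 10 genes was not tested.

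Angpt1 (ENSMUSG00000022309.9, mm10 chr15:42424723-42676977, minus strand), the activating TIE2 ligand, had the largest log2 fold change of the family and also the widest spread between libraries on the log2 scale. Its levels were 38.7, 77.1 and 35.1 CPM in CKO 1, 2 and 3, against 72.6, 97.6 and 113 CPM in control 1, 2 and 3. The libraries CKO 1 and CKO 3 were far below all controls, but CKO 2 was above control 1. The means were 50.3 ± 23.3 CPM in CKO and 94.5 ± 20.5 CPM in control hearts (SD, n = 3 each), and edgeR did not call the log2 fold change of -0.91 (SE 0.40, adjusted p = 0.358). Both limma-voom (-0.99, adjusted p = 0.0173) and edgeR without robust estimation (adjusted p = 0.0243) called Angpt1, and without CKO 2 the log2 fold change was -1.36 (adjusted p = 0.0878).

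The antisense gene Gm17473 shares 737 exon bases with Angpt1. Whether the counting used strand is not given, so reads of the pair cannot be told apart. Gm17473 had 17, 4 and 11 counts in CKO 1, 2 and 3 and 69, 48 and 38 counts in control 1, 2 and 3, and fell by 2.19 on the log2 scale (SE 0.49, edgeR adjusted p = 0.0147). Angpt1 had 1388 to 2654 counts in CKO and 2895 to 4244 in control libraries.

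Across the 6 libraries Angpt1 followed the order of Trim28. Genes were ranked by the root mean square (RMS) difference between their centred log2 CPM and that of Angpt1. The ranking took in 10291 genes with a mean log2 CPM of 3 or more, leaving out predicted and unnamed genes. Trim28 ranked 1 (RMS 0.092), ahead of Dgkk (0.212). Angpt1 also ranked 1 for Trim28, ahead of Col2a1 (0.140). Angpt1 spanned 3.23-fold in CPM between its lowest and highest library and Trim28 2.68-fold, whereas Angpt1 counts per Trim28 count were 0.225, 0.246 and 0.212 in CKO 1, 2 and 3 and 0.238, 0.250 and 0.256 in control 1, 2 and 3, a span of 1.21-fold. This relation was chosen after the values were seen, among 6 libraries that share their scaling, and is a description with no test.

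**Figure D4:**
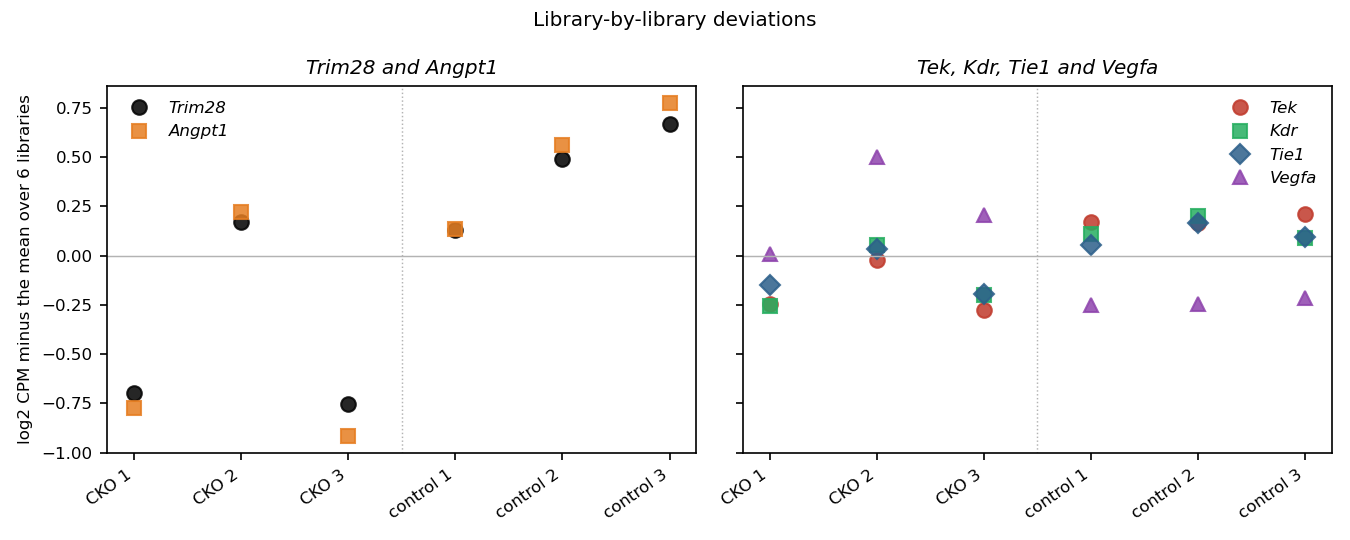
Centred log2 CPM (each library's value minus the gene's mean over the 6 libraries) of Trim28 and Angpt1 (left panel) and of Tek, Kdr, Tie1 and Vegfa (right panel), one point per library and gene, CKO left of control. In CKO 2 Angpt1 (0.22) and Trim28 (0.17) lie above their means, and in CKO 1 and CKO 3 they lie between -0.92 and -0.70.

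Angpt2 (ENSMUSG00000031465.6, mm10 chr8:18690263-18741562, minus strand), the context-dependent TIE2 ligand, had the lowest counts of the family, 226, 107 and 165 in CKO 1, 2 and 3 and 212, 136 and 147 in control 1, 2 and 3. It lies inside Mcph1 on the other strand and shares no exon base with it. Its level was 4.50 ± 1.59 CPM in CKO and 4.26 ± 0.939 CPM in control hearts (SD, n = 3 each), and the groups overlapped throughout (log2 fold change 0.08, SE 0.24, adjusted p = 0.915). The ratio of Angpt2 to Angpt1 was 0.161, 0.0403 and 0.119 in CKO and 0.0732, 0.0362 and 0.0346 in control libraries. CKO 2 lay between the controls, and the log2 difference of 1.02 had an exact permutation p of 0.2 (adjusted p = 0.3). That difference was 0.62 without CKO 1 and 1.62 without CKO 2.

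Vegfa (ENSMUSG00000023951.17, mm10 chr17:46016993-46032369, minus strand), the VEGFR2 ligand gene, had 144, 203 and 165 CPM in CKO 1, 2 and 3, against 120.4, 120.7 and 123 CPM in control 1, 2 and 3. All CKO libraries were above all controls, which were nearly equal, while the CKO libraries differed among themselves. The means were 171 ± 29.6 CPM in CKO and 121 ± 1.52 CPM in control hearts (SD, n = 3 each), and the log2 fold change of 0.49 (SE 0.11) was just short of the threshold (edgeR adjusted p = 0.0533). Vegfa was called by DESeq2 (adjusted p = 7.56e-06), limma-voom (0.00885) and edgeR without robust estimation (0.00475), and by the robust fit without CKO 1 (0.59, adjusted p = 0.000188) or without CKO 2 (0.35, adjusted p = 0.000327). It was not called with the ribosomal RNA share (0.54, adjusted p = 0.437) or the Y-linked level (0.46, adjusted p = 0.223) as a covariate. Unlike for the receptors, CKO 2 was the CKO library farthest from the controls.

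Vegfc (ENSMUSG00000031520.6, mm10 chr8:54077606-54187096, plus strand), the VEGFR3 ligand gene, had 24.6, 25.2 and 25.0 CPM in CKO 1, 2 and 3, against 28.9, 30.5 and 31.1 CPM in control 1, 2 and 3. Here CKO 2 did not stand apart, and the CKO libraries had the smallest SD of the family (0.299 CPM). The log2 fold change was -0.28 (SE 0.08, adjusted p = 0.0564), called by DESeq2 (adjusted p = 0.026) and by edgeR without CKO 2 (0.0442), with no scaling factors (0.0407) or when genes under 1 CPM were removed (0.0487). Vegfb (ENSMUSG00000024962.13, mm10 chr19:6982473-6987651, minus strand), the VEGFR1 ligand gene, had 126, 109 and 108 CPM in CKO and 112, 117 and 105 CPM in control hearts, and its log2 fold change was 0.04 (SE 0.07, adjusted p = 0.844).

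Ratios of Vegfa to other family members were apart between the groups, but no ratio passed adjustment. Vegfa counts per Kdr count were 1.07, 1.21 and 1.18 in CKO 1, 2 and 3, against 0.692, 0.651 and 0.718 in control 1, 2 and 3. The log2 difference was 0.74 (exact permutation p = 0.1, adjusted p = 0.25). These counts were not divided by exon length, so a ratio above or below 1 does not rank the genes. Per kilobase of exon, Vegfa had 39.8 CPM against 16.4 for Kdr in CKO hearts, and 28.3 against 19.6 in control hearts. By that measure Vegfa was above Kdr in both groups. The ratio of Vegfa to Vegfc averaged 6.84 in CKO and 4.03 in control hearts (log2 difference 0.75), and that of Vegfa to Flt1 differed by 0.64, with the same p values. Ratios of Vegfa to Vegfb (0.44, exact permutation p = 0.2), Angpt1 to Tek (-0.62, p = 0.2) and Angpt2 to Tek (0.41, p = 0.4) overlapped between the groups.

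Levels of different genes were compared per exon length, as CPM per kilobase of exon (RPKM), with lengths from GENCODE M21. In control hearts the order of level was Vegfb (69.5 ± 3.76 RPKM), Tie1 (48.5 ± 1.93), Tek (45.1 ± 0.784), Vegfa (28.3 ± 0.356), Kdr (19.6 ± 0.808), Angpt1 (18.2 ± 3.94), Vegfc (12.3 ± 0.468), Flt1 (6.54 ± 0.221), Flt4 (6.36 ± 0.214) and Angpt2 (1.15 ± 0.255; SD, n = 3 each). The neighbours Kdr and Angpt1, and Flt1 and Flt4, overlapped in this order, and the other neighbours did not. In CKO hearts Vegfa (39.8 ± 6.90 RPKM) overlapped Tie1 (42.1 ± 3.63) above it and Tek (35.2 ± 3.42) below it, and Angpt1 (9.67 ± 4.47) overlapped Vegfc (10.2 ± 0.122). Flt1 (5.90 ± 1.05 RPKM) and Flt4 (5.96 ± 0.612) overlapped in CKO hearts too. Vegfb stayed at the head of the list (71.2 ± 6.33 RPKM) and Angpt2 at its foot (1.22 ± 0.431).

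Genes around the ligands and receptors were counted by list, where 3.03% of all tested genes were called higher and 1.07% lower. Of 11 other genes of the angiopoietin-TIE pathway, Nos3, the endothelial nitric oxide synthase gene, fell by 0.36 on the log2 scale (SE 0.08, adjusted p = 0.0107), to 43.8 ± 4.33 CPM in CKO hearts, against 56.4 ± 4.09 CPM in controls, and none rose. Nos3 was not called without control 1 (adjusted p = 0.0509), control 2 (0.0862) or CKO 3 (0.0903), nor with the ribosomal RNA share (0.269) or the Y-linked level (0.145) as a covariate or with endothelial scaling (0.146). The next smallest adjusted p values were those of Foxo1, the transcription factor that TIE2 signalling restrains (-0.21, adjusted p = 0.101), the TIE2 phosphatase gene Ptprb (-0.22, adjusted p = 0.104) and Akt1 (-0.12, adjusted p = 0.184), and the median of the list was -0.09. Of 11 other VEGF pathway genes, the VEGFR2 adaptor gene Shb rose to 65.6 ± 2.58 CPM in CKO hearts, against 46.1 ± 5.57 CPM in controls (0.51, SE 0.08, adjusted p = 0.000682), none fell, and the median was 0.01. The ligand gene Vegfd (0.30, adjusted p = 0.379), the co-receptor gene Nrp1 (-0.10, adjusted p = 0.406) and Src (0.10, adjusted p = 0.447) did not pass. Of 11 VEGF-responsive and tip cell genes, the calcineurin inhibitor gene Rcan1 rose by 0.31 (SE 0.05, adjusted p = 0.00195), to 215 ± 2.74 CPM in CKO hearts, against 174 ± 8.28 CPM in controls, none fell, and the median was 0.15. The Notch ligand gene Dll4, which VEGF induces in tip cells, was at -0.30 (adjusted p = 0.0785), Nr4a1 at 0.39 (adjusted p = 0.119) and Pdgfb at 0.29 (adjusted p = 0.162). Leaving out 1 library kept the calls of Shb and Rcan1 in all 6 fits. Neither was called when the ribosomal RNA share was a covariate (adjusted p = 0.184 for Shb and 0.395 for Rcan1).

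HIF targets, the group to which Vegfa belongs, were higher in CKO hearts where they passed the test. Of 11 other HIF target genes, 7 rose, none fell and all 11 were positive, with a median of 0.34. Of all tested genes 3.03% were called higher. The list, like the others, was chosen with earlier results of these data known, so it is a description. The largest rise was in Adm, the adrenomedullin gene, at 16.1 ± 3.33 CPM in CKO and 7.58 ± 1.07 CPM in control hearts (log2 fold change 1.09, adjusted p = 0.000552). Bnip3 (mitophagy, 0.56, adjusted p = 3.56e-05), P4ha1 (collagen prolyl hydroxylation, 0.48, adjusted p = 0.000266), Ero1l (disulfide formation, 0.34, adjusted p = 0.0226) and the glycolytic or pyruvate genes Ldha (0.25, adjusted p = 0.00606), Pdk1 (0.21, adjusted p = 0.0379) and Pgk1 (0.20, adjusted p = 0.035) also rose. Car9 (0.57, adjusted p = 0.0649), Ankrd37 (0.43, adjusted p = 0.42) and Ndrg1 (0.22, adjusted p = 0.529) did not pass. Slc2a1, the remaining gene, was nearly level, at 394 ± 99.0 CPM in CKO and 385 ± 51.6 CPM in control hearts (0.03, SE 0.23, adjusted p = 0.967). Without 1 library the calls numbered 3 to 6, with 3 left without control 1, control 3 or CKO 3, and with the ribosomal RNA share as a covariate there were 3. Shares of all genes called higher were 1.40% to 5.57% without 1 library and 0.302% with that covariate. Of 8 HIF regulators, 2 rose, namely the prolyl hydroxylase genes Egln1 (0.41, SE 0.06, adjusted p = 0.000388) and Egln3 (0.58, SE 0.11, adjusted p = 0.00783), which are themselves HIF targets, and none fell. Both were called without each library in turn, and Egln3 was not called with the Y-linked covariate (adjusted p = 0.0807). Hif1a, which encodes the HIF-1 alpha subunit, was at 0.07 (adjusted p = 0.528), Epas1, which encodes the HIF-2 alpha subunit of endothelium, at -0.20 (adjusted p = 0.294), and Hif1an at -0.04 (adjusted p = 0.774).

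**Figure D5:**
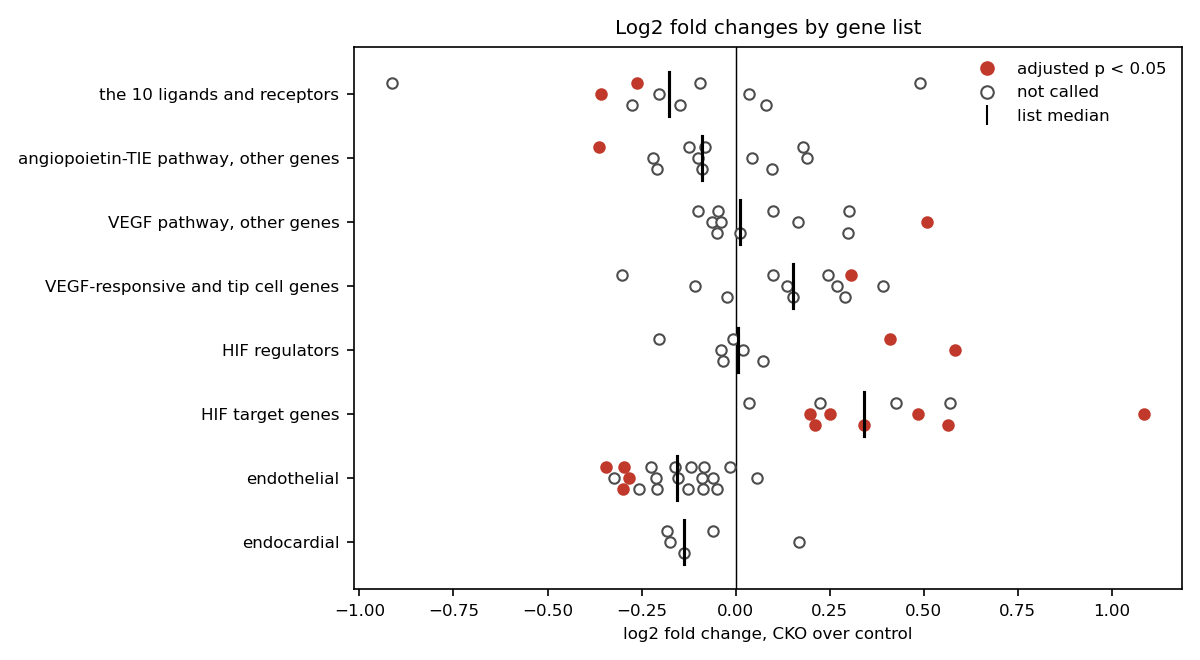
Log2 fold changes (CKO over control) of the 10 genes, of each pathway list and of the endothelial and endocardial markers, one point per gene, with called genes filled in red and the list median as a black line. The HIF targets are all above 0 (median 0.34) and 19 of 20 endothelial markers are below 0 (median -0.16).

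Markers of other cell types were counted in the same way. Among 10 cardiomyocyte markers Myh6 rose, among 8 epicardial markers Krt19 rose, and among 6 mesenchymal markers Postn fell. Of 9 macrophage markers, C1qa, C1qb and C1qc rose and none fell, where 3.03% of all tested genes were called higher. All 9 were positive (median log2 fold change 0.29), and they summed to 114 to 128 CPM in CKO and 95.3 to 102 CPM in control hearts. The 9 erythroid markers, none called, summed to 1139 to 1275.5 CPM in CKO and 1267 to 2181 CPM in control hearts (median log2 fold change -0.48). The part of these cells in the levels of Vegfa, which many cell types express, was not tested.

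Patterns over the 6 libraries were compared with that of Tek by the RMS difference of centred log2 CPM, among 10291 genes without predicted and unnamed ones. The closest were Cbfa2t3 (0.0284), Anpep (0.0304), Rps6ka5 (0.0306), Plvap (0.0367) and Mbnl3 (0.0385). Each had a log2 fold change near that of Tek, between -0.40 and -0.35, which follows from how they were picked. Of the family, Kdr ranked 56, Tie1 136 and Vegfc 148 by this measure, whereas Flt1 ranked 611 and Flt4 922. Vegfb (6965), Vegfa (10013) and Angpt1 (10073) were far from Tek. CKO 2 was the highest of the CKO libraries for 8 of the 10 genes, all but Angpt2 and Vegfb.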

How the data were processed

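The authors deposited raw counts of reads per gene symbol for 6 libraries of E12.5 mouse hearts, each made from 500 ng of total RNA. Depth was 34400841 to 39763233 counts per library. The submitters' processing notes name the mm10 build. Aligner, counting program and strand setting were not given in the sources used here. Groups came from the sample titles. No label says that libraries came from separate animals. Within each group they differed in sex-linked RNA, so they were not all repeats of the same RNA. The p-values cover only the spread among these libraries, which may be technical in part. The 10 genes and all lists were chosen with earlier results of these data known. Altered symbols (2017 rows) were restored and 30152 rows were matched to GENCODE M21. Counts were filtered with filterByExpr (minimum count 10, total 15), which kept 17557 genes and removed 0.0756% of counts, scaled with TMM and tested with edgeR 4.0.16 in R 4.3.3 (robust glmQLFit, glmQLFTest, two-sided, group as the only term). P-values were adjusted over all tested genes by the Benjamini-Hochberg method. SE is the log2 fold change over the square root of F. The genes named were the 10 genes, Trim28, called members of each list and the 5 genes most like Tek. Up to 3 further members of a pathway list with the smallest adjusted p were also named. Slc2a1 was added to complete the HIF targets. Within-library ratios were compared by two-sided exact permutation tests, which cannot go below p = 0.1. Alternatives were other scalings, DESeq2 1.42.0, limma-voom (limma 3.58.1), other fits and filters, a replicate block, covariates, a stricter threshold and leaving out each library. The edgeR legacy fit, and the alternatives for list counts, Trim28 and list genes, were added after seeing the data. The pipeline was tested on simulated data.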

Additional observations from a re-analysis of the deposited data

How the results depend on the processing

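Tek was called under 18 of 20 alternatives, Kdr under 10, Vegfa under 8, Tie1 and Vegfc under 4 each, Angpt1 under 2, Flt1 under 1, and Angpt2, Flt4 and Vegfb under none. The count of the 10 genes called lower, 2 as reported, was 1 with upper-quartile factors, the Y-linked covariate or an adjusted p under 0.01, 4 with no scaling factors or DESeq2, 0 with endothelial scaling or the ribosomal RNA covariate, and 1 to 5 when 1 library was left out. Shares of all genes called lower were 1.06% with upper-quartile factors, 0.199% with the Y-linked covariate and 0.194% at an adjusted p under 0.01. They were 1.53% with no scaling factors, 0.211% with endothelial scaling, 0.0171% with the ribosomal RNA covariate and 0.216% to 2.97% without 1 library. The count called higher, 0 as reported, was 1 (Vegfa) with endothelial scaling, DESeq2, limma-voom, the non-robust fit, no filter or the replicate block, and 0 to 1 when 1 library was left out. Shares of all genes called higher were 15.9% with endothelial scaling, 2.82% with no filter and 2.95% with the replicate block. They were 1.40% to 5.57% without 1 library. Over all genes, the 532 higher and 188 lower calls became 2798 and 37 with endothelial scaling, 863 and 388 with no filter, 53 and 3 with the ribosomal RNA covariate, 272 and 35 with the Y-linked covariate, and 247 and 34 at an adjusted p under 0.01. DESeq2 called 339 lower. Leaving out 1 library gave 255 to 1012 higher and 39 to 540 lower calls, the most without CKO 2. Signs turned for Flt1 (0.0254) and Flt4 (0.084) with endothelial scaling, for Angpt2 with the ribosomal RNA (-0.33) and Y-linked (-0.0095) covariates and for Vegfb with the ribosomal RNA covariate (-0.0515). Without 1 library, Angpt2 ranged over -0.23 to 0.27, Vegfb over -0.0469 to 0.0782 and the log2 ratio of Flt1 to the endothelial markers over -0.067 to 0.0919, while the log2 ratios of Kdr to Flt1 (-0.18 to -0.06), Kdr to Flt4 (-0.21 to -0.11), Vegfa to Vegfb (0.28 to 0.63), Angpt1 to Tek (-0.89 to -0.45), Angpt2 to Tek (0.11 to 0.72) and Angpt2 to Angpt1 (0.62 to 1.62) kept their sign. The cause was not tested. Replicate numbers did not pair the samples: same-numbered deviations correlated at -0.0022, 0.0167 and 0.0014, and not every library correlated best with its own number. With the number as a block, 518 higher and 158 lower genes were called, Tek (-0.36, adjusted p = 0.00358) and Kdr (-0.27, adjusted p = 0.0196) were still called, and Vegfa was also called (0.48, adjusted p = 0.00558). Depth limits Angpt2 most, at 107 to 226 counts in CKO and 136 to 212 in control libraries.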
